A study of Mus musculus with 5 samples.

Results

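The genes described here encode corticotropin-releasing hormone (CRH), 2 of its relatives, the urocortins, and the receptors for these peptides, and the measurement was binding of the repressor REST near them in embryonic mouse pancreas. They were 5 of 22380 protein-coding genes of the annotation, namely the ligands Crh, Ucn and Ucn3 and the receptors Crhr1 and Crhr2. A REST site was assigned to a gene when any part of the site overlapped the gene body or lay within 50 kb of the gene start. By that rule 4 of the 1860 sites in the data belonged to these genes. The genes were chosen on the peaks of these same libraries (whether a peak was called and how high its score ranked), so presence, rank and stage pattern are given as a description, without a test.

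The series mapped REST, a zinc-finger repressor of neuronal genes that binds a DNA element called RE1, by ChIP-seq in whole pancreas of untreated wild-type embryos on a mixed strain with C57BL/6. Chromatin was precipitated with the mouse monoclonal anti-REST antibody 12C11. The E13.5 stage had 2 libraries (A and B), each from 4 to 6 pooled pancreases, and E18.5 had 3 (A, B and C), each from 3 to 4 pooled pancreases, and the labels call them biological replicates. After overlapping entries were merged, the lists held 1400 and 1333 peaks at E13.5 and 541, 417 and 226 peaks at E18.5. Each peak carries a score of unstated unit, so scores are read as a percentile within their own library, where 100 is the highest. The number of reads behind each list is unknown, and a peak that is missing from a list was not called there, which does not measure a lack of binding. Whole pancreas mixes epithelial, endocrine and mesenchymal cells, so a site cannot be placed in a cell type, and peak lists hold no expression with which to check the tissue against its markers.

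CRH is the hypothalamic peptide that starts the stress response by releasing ACTH from the pituitary, and it acts through CRHR1. Urocortin (Ucn) binds both receptors, whereas urocortin 3 (Ucn3) is selective for CRHR2. Both receptors belong to the class B1 family of G protein-coupled receptors and raise cyclic AMP. In the mature islet, urocortin 3 is made by beta cells and acts through CRHR2 on delta cells, which release somatostatin, and CRHR1 on beta cells enhances insulin secretion.

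The sequences at the 4 sites are shown because 3 of them hold the RE1 element that REST recognises and the fourth has only a partial one. RE1 was searched on both strands as a left arm TTCAGCACC, any 2 bases and a right arm GGACAGCGC, with at most 4 mismatches over the 18 fixed letters, in 500 bp around the centre of a site. Each sequence below is 100 bases of mm9, written 5′ to 3′ on the strand of the element, and the 20 capitals mark the best match in the site.
Crh, chr3:19594590-19594689, minus strand, in the intron: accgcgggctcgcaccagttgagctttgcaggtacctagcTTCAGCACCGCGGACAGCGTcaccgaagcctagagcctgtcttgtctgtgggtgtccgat
Ucn, chr5:31441538-31441637, minus strand, upstream: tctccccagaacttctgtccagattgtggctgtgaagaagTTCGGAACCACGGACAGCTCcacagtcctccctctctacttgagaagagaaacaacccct
Crhr1, chr11:103976183-103976282, minus strand, upstream: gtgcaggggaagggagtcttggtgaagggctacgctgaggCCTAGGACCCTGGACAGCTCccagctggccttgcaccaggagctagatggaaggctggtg
Crhr2, chr6:55058461-55058560, plus strand, in an intron: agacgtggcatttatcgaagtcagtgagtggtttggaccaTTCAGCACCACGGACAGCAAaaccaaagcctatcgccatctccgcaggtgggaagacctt

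Positions in these elements are counted from 1 at the 5′ end of the left arm, and a change names the searched letter first. The Crh element had 17 of the 18 letters, with the single change C20T. The Crhr2 element had 16 of 18 (G19A, C20A), so its left arm was complete and both changes were at the end of the right arm. The Ucn element had 15 of 18 (A4G, C6A, G19T). The best stretch at the Crhr1 site had 13 of 18 (T1C, T2C, C3T, C6G, G19T), 1 mismatch beyond the limit, so the Crhr1 site counts as having no RE1 match, although this stretch lay 1.5 bp from the centre of the site. Of its 5 changes 4 were in the left arm.

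Each element was picked as the stretch closest to the same searched letters, so likeness between elements is partly built in. The Crh and Crhr2 elements were the most alike, with 17 of 20 bases identical, the gap included. Ucn and Crhr2 shared 16 of 20 and Ucn and Crh 15 of 20, whereas the Crhr1 stretch shared 12 with Crh, 12 with Crhr2 and 13 with Ucn. All 4 held the same base at 11 of the 20 positions. The elements of the 2 ligand genes lay on the same strand as the gene, and those at the 2 receptor genes on the opposite strand.

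RE1 matches are a common feature of the sites in these lists. Of the 1849 sites on assembled chromosomes, 54.6% held a match by the same search, and of the sites called in both E13.5 libraries 71.3% did. In windows of the same length 10 kb away the share was 0.541%. With 3 of 4 sites matched the genes described here are too few for a share of their own to be read against these values. A match is a description of letters, and its absence at Crhr1 says nothing on how REST was held there.

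Across the genome, the share of elements under a called site fell as mismatches rose. Of the perfect matches, 16 of 16 lay under a site. With 1 mismatch, as at Crh, 129 of 136 (94.9%) did, with 2, as at Crhr2, 332 of 457 (72.6%), and with 3, as at Ucn, 375 of 1531 (24.5%). With 4 mismatches only 258 of 12854 (2.01%) lay under a site. The matches within the windows of the 5 genes are only described, since the genes were chosen on the peaks of these libraries. The 3 matches with 1 to 3 mismatches were all under a site, and the 3 matches with 4 mismatches, 1 each near Ucn3, Crhr1 and Crhr2, were not. The Ucn3 one was 27.6 kb from the gene start in an intron of the neighbouring gene Net1, the Crhr1 one 7.9 kb inside the gene, and the Crhr2 one 24.2 kb inside the gene, close to the bound element. No promoter of the 5 genes, taken as 250 bp before to 50 bp after the start, held a match, and of all protein-coding promoters 0.572% did.

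**Figure D1:**
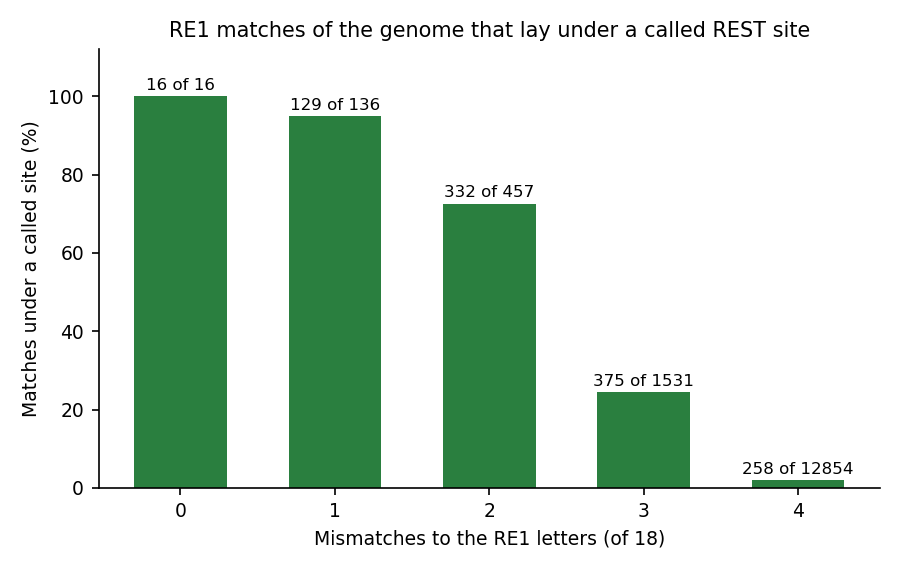
Share of the RE1 matches in mm9 that lay under a called REST site (vertical axis, %), by the number of mismatches to the 18 fixed letters (horizontal axis), with the counts above the bars. Elements with the 1, 2 and 3 mismatches found at Crh, Crhr2 and Ucn were under a site in 94.9%, 72.6% and 24.5% of cases.

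Across the 5 genes, 4 had a site in at least 1 library (Crh, Ucn, Crhr1 and Crhr2), where 9.8% of all protein-coding genes did. There were 3 with a site called in both E13.5 libraries (Crh, Crhr1 and Crhr2), against 6.89% of all genes. A single gene, Crh, had a site in any E18.5 library, and the same gene had it in at least 2, against 4.96% and 2.2% of all genes. By library, the genes with a site numbered 4 in E13.5 A, where 7.86% of all genes had one, and 3 in E13.5 B, where 7.57% did. At E18.5 they numbered 1 in A (3.28% of all genes), 0 in B (3.06%) and 1 in C (1.97%). Since the genes were picked on this pattern, nothing is read from these counts.

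**Figure D2:**
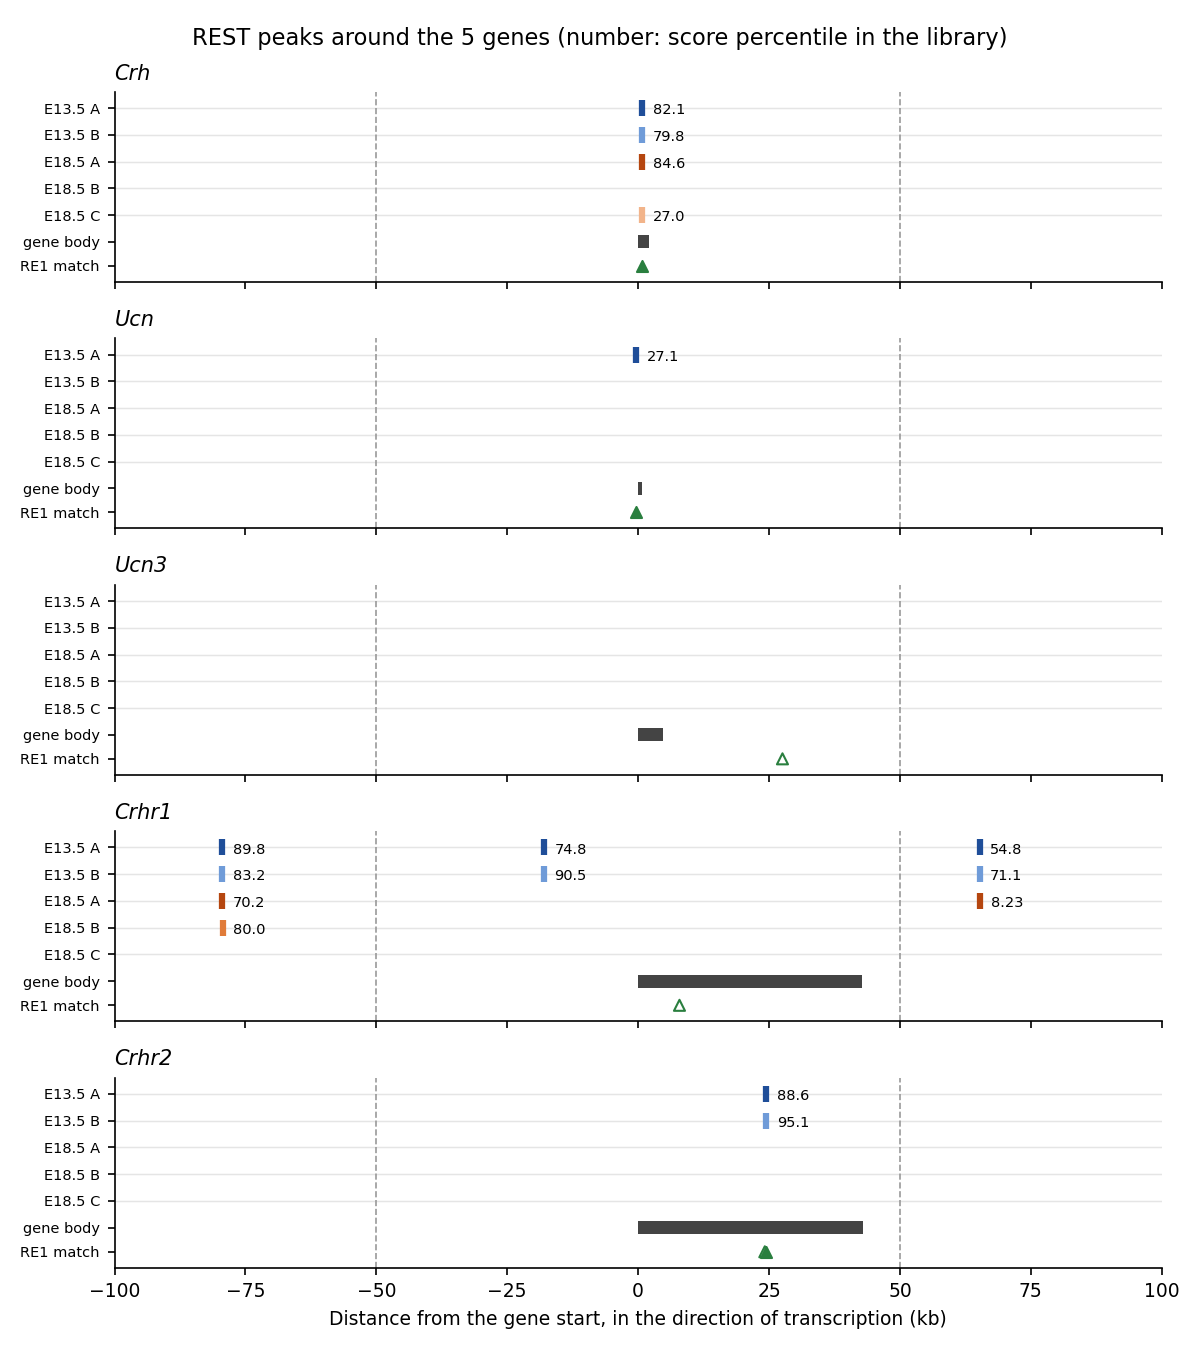
REST peaks within 100 kb of the start of each of the 5 genes, by library (rows), with distance in kb along the direction of transcription; each tick is a called peak and the number beside it its score percentile. Dashed lines mark the 50-kb window, dark bars the gene body, filled triangles RE1 matches under a site and open triangles those with no site, both searched in the window only. Crh keeps peaks at E18.5, Crhr2 and the Crhr1 site inside the window have E13.5 peaks only, and Ucn3 has none.

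Among the ligands, Crh (ENSMUSG00000049796.4, chr3:19593401-19595396, minus strand) carried its site inside the gene. The site (chr3:19594318-19594905) was centred 796 bp downstream of the start in the only intron of the gene, which is 676 bp long. Its score was 24 in E13.5 A, 28 in E13.5 B, 11 in E18.5 A and 9 in E18.5 C, and no peak was called in E18.5 B. The percentiles were 82.1 and 79.8 in the E13.5 libraries and 84.6 in E18.5 A, but 27.0 in E18.5 C, where 145 of the 226 peaks scored higher. By percentile the site thus stood in the upper part of 3 lists and in the lower part of the shortest one. The lists differ in length, and by count 235 peaks scored higher in E13.5 A, 257 in E13.5 B and 79 in E18.5 A. With only the top 226 peaks of each list, the site kept its peaks in E18.5 A and C and lost those in E13.5 A and B. Its combination of libraries was shared by 44 of the 1860 sites (2.37%).

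The Crh site lay also within 50 kb of the start of Trim55, but the start of Crh was the nearest coding start. The peaks called there were 221 and 549 bp wide at E13.5 and 543 and 297 bp wide at E18.5. The 20-bp element was inside each of the 4 peaks, 39.5 bp from the centre of the joined site.

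Ucn (ENSMUSG00000038676.2, chr5:31440436-31441202, minus strand), a gene of 767 bp, had the weakest evidence of the 4. Its site (chr5:31441500-31441603) was intergenic, 350 bp upstream of the start, and was called in E13.5 A alone, with a score of 10 and a percentile of 27.1 (988 of 1400 peaks scored higher). None of the other 4 libraries had a peak there, so the site has no replicate, and without E13.5 A the gene has none. Sites called in E13.5 A alone made up 204 of the 1860. The element was inside the 104-bp peak, 35.5 bp from its centre. The site also fell in the windows of 6 other coding genes, Dnajc5g, Gm9924, Gtf3c2, Mpv17, Slc30a3 and Trim54, of which none had a nearer start.

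Ucn3 (ENSMUSG00000044988.7, chr13:3939934-3944595, minus strand) had no REST peak in any of the 5 libraries. The nearest site was 1.55 Mb away (chr13:5496792-5497224), called in both E13.5 libraries, and Klf6 had the nearest coding start to it. For 82.6% of 22350 genes the nearest site was closer than for Ucn3, and the median distance was 460 kb. Thus the ligand made by mature beta cells was the member for which these lists held nothing within any window tried.

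Among the receptors, Crhr1 (ENSMUSG00000018634.9, chr11:103994169-104036837, plus strand) had an intergenic site 17.9 kb upstream of its start (chr11:103975963-103976493), with no other coding gene sharing it under the 50-kb rule. The score was 21 in E13.5 A and 36 in E13.5 B, and no E18.5 library had a peak. The percentiles were 74.8 (333 of 1400 peaks higher) and 90.5 (123 of 1333 higher). The libraries therefore differed by 15.7 percentile points, while the median difference over the 1186 sites called in both was 11.2 points and the 90th percentile 31.7. The peaks were 216 bp wide in A and 531 bp in B, and the partial element was near the middle of both.

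Crhr2 (ENSMUSG00000003476.8, chr6:55040043-55083010, minus strand) had the highest-ranked site of the 4 at E13.5. The site (chr6:55058264-55058799) was centred 24.5 kb downstream of the outermost start and 9.23 kb downstream of the nearest of its 7 annotated transcript starts, in an intron of 12.6 kb, which is intron 3 of 12 in transcript Crhr2-001. Its score was 28 in E13.5 A (percentile 88.6, 149 peaks higher) and 45 in E13.5 B (percentile 95.1, 63 peaks higher). It was not called in any E18.5 library. The E13.5 libraries differed by 6.52 points, less than the median over shared sites, and the element lay 21.5 bp from the centre of the site and inside both peaks, which were 203 and 536 bp wide.

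**Figure D3:**
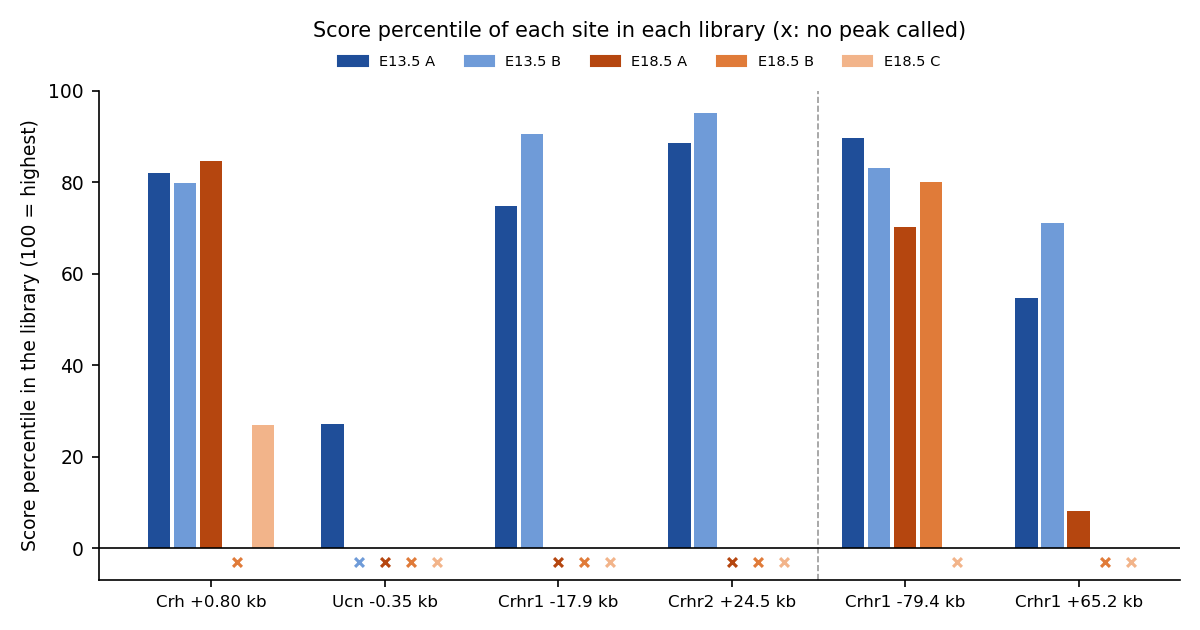
Score percentile (vertical axis, 100 is the highest score of a library) of the 4 sites and, right of the dashed line, of 2 further Crhr1 sites beyond 50 kb, with 1 bar per library and a cross where no peak was called. No bar is a mean and there are no error bars, since each is 1 library. Crh stands at 79.8 to 84.6 in 3 libraries and at 27.0 in E18.5 C.

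**Figure D4:**
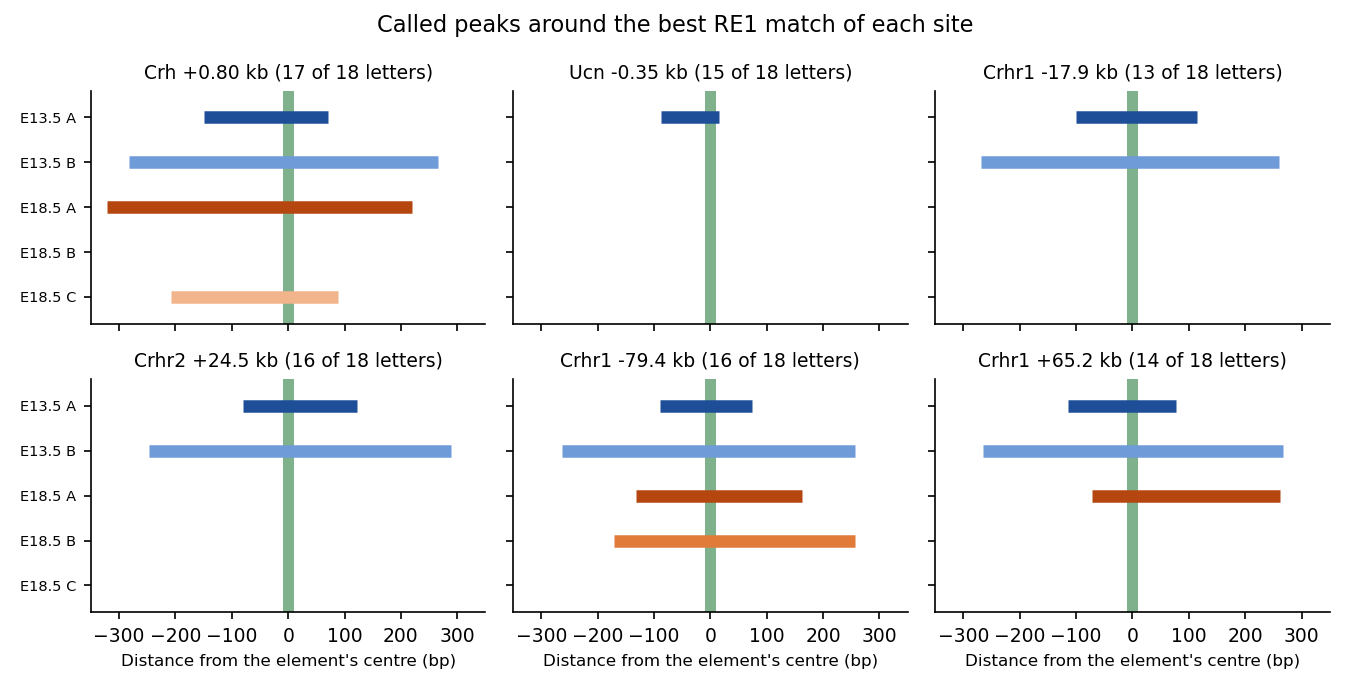
Span of each called peak (bars, 1 row per library) around the best RE1 match of its site, with distance from the centre of the element in bp; the green band is the 20-bp element. The element lies inside all of the peaks, including the 104-bp Ucn peak, where it is near the edge, and the partial element at Crhr1 (13 of 18 letters).

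The 3 sites shared by the E13.5 libraries can be set beside other sites of like rank. Of all 1186 shared sites, 480 (40.5%) were also called in at least 1 E18.5 library, and this share was higher around the higher E13.5 ranks. The Crhr2 site had a mean E13.5 percentile of 91.9, and 91 shared sites ranked higher. Of the 121 shared sites within 5 percentile points of it, 110 (90.9%) had an E18.5 peak. Among the 706 shared sites with no E18.5 peak, 1 ranked above it.

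The Crhr1 site had a mean of 82.6, and 113 of 136 sites of like rank were called at E18.5 (83.1%). The Crh site had a mean of 80.9, and of its neighbours in rank 96 of 122 (78.7%) were called at E18.5 and 57 of 122 in at least 2 libraries. The sites themselves had peaks in 2 (Crh), 0 (Crhr1) and 0 (Crhr2) of the 3 E18.5 libraries. The genes were chosen on these same ranks and calls, so the shares describe the lists and support nothing about the genes. The stage was not tested at single sites, and the depth of the E18.5 libraries, which is unknown, cannot be told apart from the stage.

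The number of mismatches did not order these sites by rank. Shared sites with 1, 2 and 5 mismatches had median E13.5 percentiles of 70.2, 59.8 and 46.4, and E18.5 peaks in 59.8%, 46.3% and 35.0% of cases. Crh with 1 mismatch, Crhr2 with 2 and Crhr1 with 5 all ranked above the median of their class. Crhr2, with 1 mismatch more than Crh, ranked higher than Crh in both E13.5 libraries. The genes were chosen on these same ranks, so this describes the named sites and says nothing on mismatches and rank in general.

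**Figure D5:**
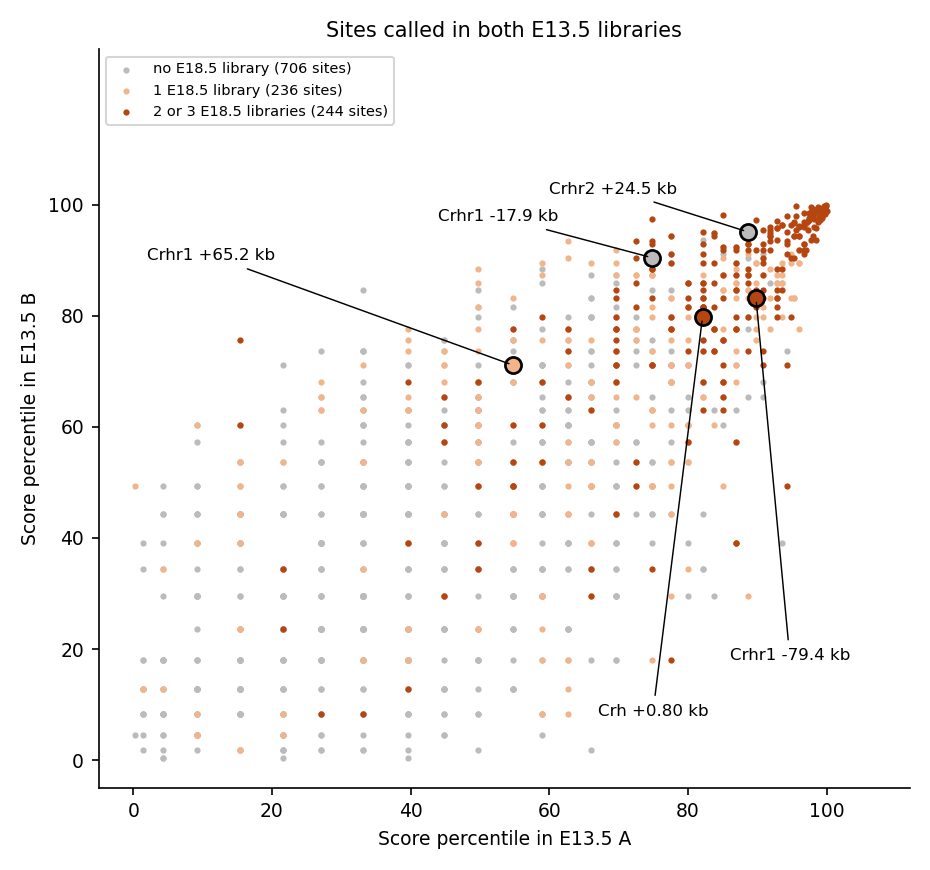
Score percentile in E13.5 A (horizontal axis) against E13.5 B (vertical axis) for the 1186 sites called in both, coloured by the number of E18.5 libraries with a peak; points of equal percentiles overlap. Outlined points are the sites at Crh, Crhr1 and Crhr2, among them 2 Crhr1 sites beyond 50 kb. Grey points have no E18.5 peak (706 sites), and the sites at Crhr2 and, within 50 kb, at Crhr1 are among them.

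The 50-kb limit decides what is counted at Crhr1. No site was close to the limit. The farthest inside it were the Crhr1 site at 17.9 kb and the Crhr2 site at 24.5 kb, the latter also inside the gene body, and the nearest beyond it were 2 more sites flanking Crhr1. The upstream one (chr11:103914497-103915017), 79.4 kb from the start, had Crhr1 as its nearest coding start. Its percentiles were 89.8 and 83.2 for E13.5 A and B, 70.2 for E18.5 A and 80.0 for E18.5 B, with no peak in E18.5 C. The downstream one (chr11:104059127-104059658) was 65.2 kb from the start and 22.6 kb past the end of the gene, with 4933407P14Rik as its nearest coding start, at 11.8 kb. Its percentiles were 54.8, 71.1 and, in E18.5 A, 8.23, with no peak in E18.5 B or C.

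Crhr1 is thus flanked by 3 sites, of which only the nearest lacked an E18.5 peak. The 2 outer sites each held an RE1 match, and their sequences are set beside the partial element between them. They are 100 bases of mm9 on the strand of the element, with the best match in capitals. That match had 16 of 18 letters upstream (C18A, C20G) and 14 of 18 downstream (T2C, C6G, C18T, G19A). The partial element had 13 of 18, so only the limit of 4 mismatches separates it from the downstream match.
Crhr1 far upstream, chr11:103914711-103914810, minus strand: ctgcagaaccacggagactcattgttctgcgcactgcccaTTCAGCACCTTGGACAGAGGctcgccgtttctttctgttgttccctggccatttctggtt
Crhr1 downstream, chr11:104059342-104059441, minus strand: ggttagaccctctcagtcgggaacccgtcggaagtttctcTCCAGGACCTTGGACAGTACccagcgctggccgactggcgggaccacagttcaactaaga
The far upstream element shared 16 of 20 bases with the Crh element, and the downstream one shared 15 of 20 with the partial element of Crhr1. Such likeness is again partly built in by the search. The 3 elements around Crhr1 all lay on the strand opposite to the gene. Combinations of libraries like theirs were found at 55 sites (2.96%) and 126 sites (6.77%), against 706 (38.0%) for the Crhr1 and Crhr2 pattern of both E13.5 libraries and nothing else.

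Genes with the pattern nearest to each member were found by the distance between best percentiles over the 5 libraries, with 0 where no peak was called. For Crh they were Mmp9 and Slc12a5, which share their best sites (distance 10.1 each), and Ctxn2 (10.3). For Crhr1 they were Cdh13 (2.9), Brms1 and Cd248 (2.99 each), and for Crhr2 Hs3st2 (4.87), Mdh2 and Styxl1 (5.3 each). The distances were larger for Crh than for the 2 receptors. Mmp9, Slc12a5 and Ctxn2 had the same percentile as Crh in E18.5 C (27.0) and, like Crh, a high one in E18.5 A (89.4, 89.4 and 81.5). They were picked for nearness over these same percentiles, so this likeness follows from the choice.

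The wider pathway was covered by 57 further genes in 5 lists, all matched to the annotation. Of these, 10 had a site in at least 1 library, 5 in both E13.5 libraries, 4 in at least 1 E18.5 library and 1 in at least 2, where 9.8%, 6.89%, 4.96% and 2.2% of all protein-coding genes did. These lists were not tested, and the counts are a description. Neither of the 2 other genes of the CRH family, the ligand Ucn2 and the binding protein gene Crhbp, had a site.

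Of 10 genes of the stress axis 2 had a site, and both were called in both E13.5 libraries. They were Pomc, which encodes the ACTH precursor, and Pcsk1, which encodes the protease that cuts it. Over all genes 9.8% had a site in any library and 6.89% in both E13.5 libraries. With 10 genes the count is too small to be read against these shares. The Pomc site (chr12:3955380-3955847) was in an intron 0.636 kb from the start, with percentiles of 21.6 and 23.7 in the E13.5 libraries, 29.5 in E18.5 B and 2.88 in E18.5 C, and none in E18.5 A. Its element, TTCAGAACCTTGGACAGTTC (chr12:3955621-3955640, minus strand), had 15 of 18 letters. Pomc was thus called in the same number of libraries as Crh but at low rank in each. The Pcsk1 site (chr13:75225982-75226514), 1.05 kb upstream, stood at 9.18 and 60.3 at E13.5 and 29.5 in E18.5 B, and its best match had only 12 of 18 letters.

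Of the 20 genes of Gs and cyclic AMP signalling 2 had a site. The adenylyl cyclase gene Adcy5 had one in an intron 148 kb from its start, at 74.8 and 75.7 in the E13.5 libraries with no E18.5 peak, and the start of Sec22a was nearer. Prkar2a, a regulatory subunit of protein kinase A, had one in E13.5 A and E18.5 A (15.4 and 27.0), 50.1 kb inside the gene. This count is close to the share of all genes with a site in any library (9.8%), and nothing is read from it.

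Of 13 other class B1 receptors 1 had a site, the incretin receptor gene Glp1r (chr17:31075562-31076036, 37.0 kb from its start, with Umodl1 as the nearest coding start). It stood at 59.0 and 57.3 at E13.5 with no E18.5 peak, below both CRH receptors, and its element, TTCAGCACTCTGGCCAGCTC (chr17:31075778-31075797, plus strand), had 15 of 18 letters. Of 12 class B1 ligands 5 had a site, and only that of Vip, vasoactive intestinal peptide, was called in both E13.5 libraries (66.0 and 65.4, 0.105 kb from the start). Over all genes these shares were 9.8% and 6.89%, and with 12 genes the counts are too small to be read against them. The Vip element, TTCAGCACCCTAGACAGCTG (chr10:4707216-4707235, minus strand), had 15 of 18 letters and lay in the 5′ part of the transcript annotated as UTR. Adcyap1, Pthlh and Calcb were called in E13.5 A only, as Ucn was, and Sct in E18.5 B only, at a site in an intron of Phrf1.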

How the data were processed

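REST ChIP-seq was analysed from 5 deposited peak lists, 1 per library. According to the methods and the submitters' notes on processing, the authors aligned single-end reads with Bowtie2 2.2.5 and used MACS2 2.1.0 to call peaks over input DNA (SAMtools is also named). The methods describe calls on pooled replicates, whereas the deposited lists are 1 per library. The deposited score of each peak is the authors' value, a whole number of unstated scale, and was used only to rank peaks within a library, ties taking their mean rank. The notes name NCBI36 and mm9, and all peaks on assembled chromosomes were within the chromosome lengths of mm9. Overlapping entries of a list were merged (7, 2, 4, 2 and 3 entries) and the highest score kept. Peaks of different libraries that overlapped by at least 1 bp were joined into a site. A site was assigned to a GENCODE vM1 gene when its span overlapped the gene body or 50 kb either side of the outermost start. Distances were measured from the centre of the site. Libraries that share a letter across stages are different embryos.

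The members, gene lists and settings were chosen with earlier results of these data known, and no test was run on the members. Named were the 5 members, the genes of the lists with sites in both E13.5 libraries, the 3 genes nearest in pattern to each member called there, the gene with the start nearest to each site and sites within 100 kb; other list genes with a site (Prkar2a, Adcyap1, Pthlh, Calcb and Sct) were named after their values were seen. Alternatives changed the window, score limit, overlap, gene model, RE1 search or left out a library. The code (Python 3.11.15, numpy 2.4.6, pandas 2.3.3, scipy 1.17.1) was tested on simulated data.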

Additional observations from a re-analysis of the deposited data

How the results depend on the processing

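The 86 values from other settings gave 61 that stayed with the reported value (within 1.5 times for a count of genes or sites, within the 95% interval for a share) and 25 that moved. With a 100-kb window Crhr1 gained its outer sites, so 2 genes had a site in at least 1 and 2 in at least 2 E18.5 libraries, and the shares of all genes were 11.9% (both E13.5) and 8.78% (any E18.5). With a 10-kb window Crhr1 lost its site, and those shares were 3.21% and 2.37%. Basal plus extension domains also gave 2 and 2 genes at E18.5, with 5.35% of all genes in any E18.5 library, and any transcript start gave 2 in at least 1 E18.5 library. With the top 226 peaks of each list, 1 gene (Crhr2) had a site in both E13.5 libraries, and the shares were 1.48% and 3.15%. The Crh site then had peaks in E18.5 A and C only. With peaks at or above the median score of their library, 0 genes had a site in at least 2 E18.5 libraries. When 50% overlap of both peaks was required, 1 gene (Crh) had a site in both E13.5 libraries, since the narrow A and wide B peaks at Crhr1 and Crhr2 were no longer joined. RE1 matches were found at 43.3% of all sites with at most 3 mismatches and at 65.0% with at most 5. With at most 5, all 4 sites of the genes matched, the Crhr1 site included. With arms 0 to 12 bases apart and at most 1 mismatch in each arm, 24.0% of all sites matched, and 1 of the 4 sites (Crh).

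When each library was left out in turn, the genes with a site in at least 2 E18.5 libraries ranged from 0 to 1 (0 without E18.5 A and 0 without E18.5 C). Without E13.5 A or B, the share of all genes called in the remaining E13.5 library was 7.57% and 7.85%. Otherwise the share in both E13.5 libraries was 6.89%. The share in any E18.5 library ranged from 3.64% to 4.76% where an E18.5 library was left out and was 4.96% otherwise. Ucn had no site without E13.5 A. No paired analysis was possible because no test was run and shared letters mark different embryos. Read depth is unknown, so the shorter E18.5 lists limit what can be said of a missing peak.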
